A study of Triticum aestivum with 3 samples.

Results

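GW2 encodes a RING-type E3 ubiquitin ligase, and hexaploid wheat carries a homoeologous copy of it on each of chromosomes 6A, 6B and 6D. The members described here were chosen by their gene identifiers, TraesCS6A02G189300, TraesCS6B02G215300 and TraesCS6D02G176900, and make up 3 of the 165276 genes and 4 of the 193258 transcripts quantified in the series. The libraries were made from shoots of seedlings of Chinese Spring, the cultivar whose genome is the wheat reference, grown on MS agar plates in long days after a period of cold and dark. The sample titles call the plants WT, and the labels name no treatment and no second genotype. There was 1 group, with 3 biological replicates, and the age is labelled as both 12 and 14 days. The labels do not say whether the replicates came from separate cultures, so that their spread may be partly technical. Replicate 3 stood apart from the others: its 10 most abundant transcripts took 26.5% of all TPM, against 19.6% and 19.2% in replicates 1 and 2, and most other genes were lower in it. The main levels, ratios and coefficients of variation are therefore also given without it. The RNA came from whole shoots, in which fewer cells of a type and less RNA per cell cannot be told apart.

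E3 ligases hand ubiquitin from a conjugating enzyme to a chosen protein, which is thereby often marked for breakdown by the proteasome. In rice, GW2 limits grain width by restraining cell division in the spikelet hull, and in Arabidopsis its counterpart DA2 limits the size of seeds and other organs, acting with the ubiquitin-activated peptidase DA1. In wheat, loss of GW2 function gives wider and heavier grains, and the copies act additively. The gene is thus best known from the spike and the grain, whereas the values below are from the seedling shoot. The question put to the data was how the transcripts of the 3 copies were divided among subgenomes, annotated transcripts and replicates.

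All 3 copies were transcribed in the shoot at a low to moderate level, with the 6B copy highest, the 6A copy intermediate and the 6D copy lowest in each of the 3 libraries. Levels are in TPM, reads per effective length of transcript relative to the sum over the library, and add up all transcripts annotated for a copy. The 6B copy stood at 3.09, 2.94 and 1.39 TPM in replicates 1, 2 and 3, or 2.47 ± 0.941 (SD, n = 3). The 6A copy stood at 2.32, 2.45 and 0.986 TPM, or 1.92 ± 0.809 (SD, n = 3). The 6D copy stood at 1.77, 1.88 and 0.843 TPM, or 1.50 ± 0.569 (SD, n = 3). Without replicate 3 the means were 3.01 TPM for 6B, 2.38 for 6A and 1.82 for 6D. Replicates 1 and 2 lay close together for each copy and replicate 3 lay far below them, so that across libraries the ranges of the 3 copies overlapped even though their order did not change.

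**Figure D1:**
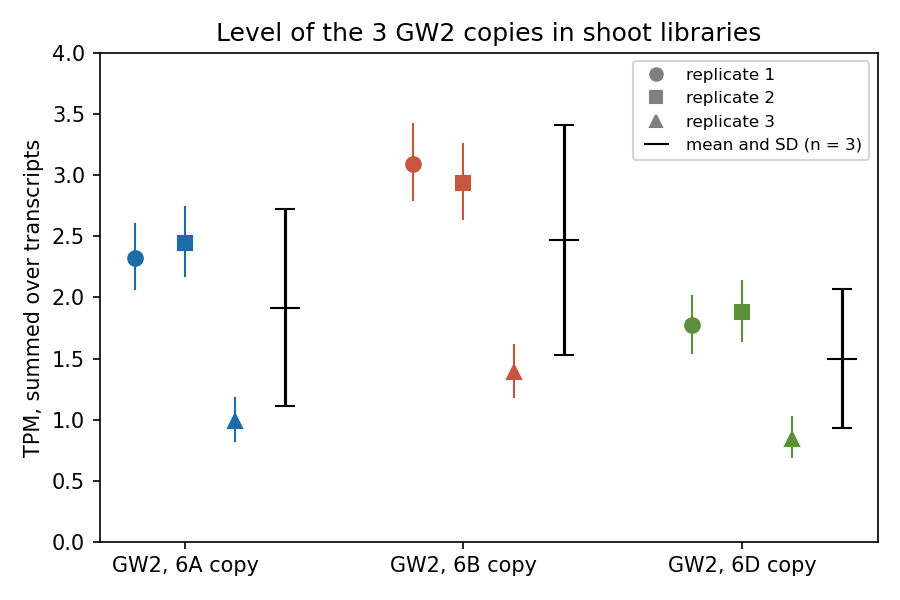
The y axis gives the summed TPM of each GW2 copy (x axis), with a point per replicate, a 95% exact Poisson interval on its estimated count, and the mean with its SD (n = 3) beside the points. Within each replicate the 6B copy is highest and the 6D copy lowest, and the points of replicate 3, from 0.843 to 1.39 TPM, lie below all points of replicates 1 and 2.

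Summed over the copies, GW2 reached 7.18, 7.26 and 3.22 TPM. By the rule that a gene is expressed where the median of the replicates is above 0, 3 of 3 copies were expressed, where the share over all genes was 61.3% and over high-confidence genes 67.3%. A median of at least 1 TPM was likewise reached by 3 of 3 copies, against 30.3% of all genes and 36.4% of high-confidence genes. With so few copies, these counts say no more than that each was detected well above 0. Of the 101320 expressed genes, 69.3% had a median at or below that of the 6B copy, 65.1% at or below that of the 6A copy and 60.2% at or below that of the 6D copy. Without replicate 3 these percentiles were 70.7, 66.6 and 62.1. The median expressed gene stood at 0.965 TPM.

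The copies held similar places among the expressed high-confidence genes of their own chromosomes. The 6A copy was at the 59.4th percentile of 2806 such genes on chromosome 6A, the 6B copy at the 64.9th of 3057 on chromosome 6B and the 6D copy at the 55.4th of 2775 on chromosome 6D. The median expressed gene of these chromosomes stood at 1.32, 1.22 and 1.28 TPM respectively. The higher level of the 6B copy was therefore not matched by a higher median on its chromosome.

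The depth behind these values was lowest for the 6D copy in replicate 3. The 6A copy had 282, 284 and 113 estimated counts in replicates 1, 2 and 3. The 6B copy had 372, 337 and 157, and the 6D copy 218, 221 and 97.8. The library totals lay between 67470696 and 76337649 estimated counts. At the length of GW2, 3 counts correspond to 0.0247 to 0.0262 TPM, well below each value of each copy. The annotated transcripts are of nearly equal length, 1709 bases for 6A, 1692 for 6B and 1730 or 1733 for 6D, so that length adds little to the differences between copies.

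The copies differed in level by modest and repeatable factors. The 6B copy exceeded the 6D copy 1.75-fold, 1.56-fold and 1.65-fold in replicates 1, 2 and 3, a mean log2 ratio of 0.68 ± 0.079 (SD, n = 3) on the log2(TPM + 0.1) scale. The 6B copy exceeded the 6A copy 1.33-fold, 1.20-fold and 1.41-fold, and the log2 ratio of 6A over 6B was -0.37 ± 0.10 (SD, n = 3). The 6A copy exceeded the 6D copy 1.31-fold, 1.30-fold and 1.17-fold, a log2 ratio of 0.31 ± 0.094 (SD, n = 3). Each of these directions was seen in 3 of 3 libraries. Without replicate 3 the log2 ratios were 0.69 for 6B over 6D, -0.33 for 6A over 6B and 0.37 for 6A over 6D.

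In a two-sided exact permutation test that flips the sign of the within-library difference, each of the 3 pairs gave p = 0.25, and 0.25 after Benjamini-Hochberg adjustment over the 3 pairs. This is the smallest p that 3 libraries allow, so that no pair could pass a threshold of 0.05. Over the 3 libraries the SD of log2(TPM + 0.1) was 0.69 for 6A, 0.62 for 6B and 0.60 for 6D, and the SDs of the log2 ratios lay between 0.079 and 0.10. The larger SD of the levels rests on replicate 3. From replicate 1 to replicate 2 the levels differed by 0.074 (6A), -0.072 (6B) and 0.080 (6D) on this scale. The ratios differed by 0.15 (6A over 6B), -0.0065 (6A over 6D) and -0.15 (6B over 6D). Without replicate 3 the ratios that involve 6B were thus less steady than the levels, whereas the ratio of 6A over 6D was steadier. As levels, neighbours in the order (6B and 6A, 6A and 6D) did not differ beyond the SD over all 3 libraries. In replicates 1 and 2 alone the levels were separate, at 2.94 to 3.09 TPM for 6B, 2.32 to 2.45 for 6A and 1.77 to 1.88 for 6D. As ratios within a library, the mean distance from equality was over 3 times the SD for each pair.

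Counting error was compared within each library. The 95% exact Poisson intervals of 6B and 6D were apart in all libraries, closest in replicate 3, where 6D reached up to 1.03 TPM and 6B down to 1.18 TPM. The intervals of 6A and 6B were apart in replicate 1 only (6A up to 2.61, 6B from 2.79 TPM). In replicate 2 they overlapped (6A up to 2.75, 6B from 2.63 TPM). The intervals of 6A and 6D were apart in replicates 1 and 2 (6A from 2.06 and 2.17, 6D up to 2.02 and 2.14 TPM) and overlapped in replicate 3. The intervals were thus apart in every library for 6B and 6D, and only in some libraries for the smaller steps through 6A. Overlap of separate intervals does not show that copies are alike, and the differences themselves were not tested against counting error. These intervals cover counting error alone, on estimated counts rounded to whole numbers.

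As shares of the summed TPM, the 6B copy held 43.0%, 40.4% and 43.2% in replicates 1, 2 and 3, or 42.2% ± 1.54 (SD, n = 3). The 6A copy held 32.3%, 33.7% and 30.6%, or 32.2% ± 1.53. The 6D copy held 24.7%, 25.9% and 26.2%, or 25.6% ± 0.805. The ranges of the shares did not overlap between copies, unlike the ranges of the levels over all 3 libraries. This contrast rests on replicate 3, since in replicates 1 and 2 alone the ranges of the levels did not overlap either.

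The shares were also placed against 7 reference points that are in common use for wheat triads: equal shares, a single copy holding all (3 points) and a single copy absent with the rest divided evenly (3 points). The nearest point was equal shares in each library, at distances of 0.131, 0.103 and 0.125 as shares of 1. The next nearest was an absent 6D copy, at 0.311, 0.320 and 0.333. By this scheme the GW2 triad was balanced, with a lean towards 6B and away from 6D.

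**Figure D2:**
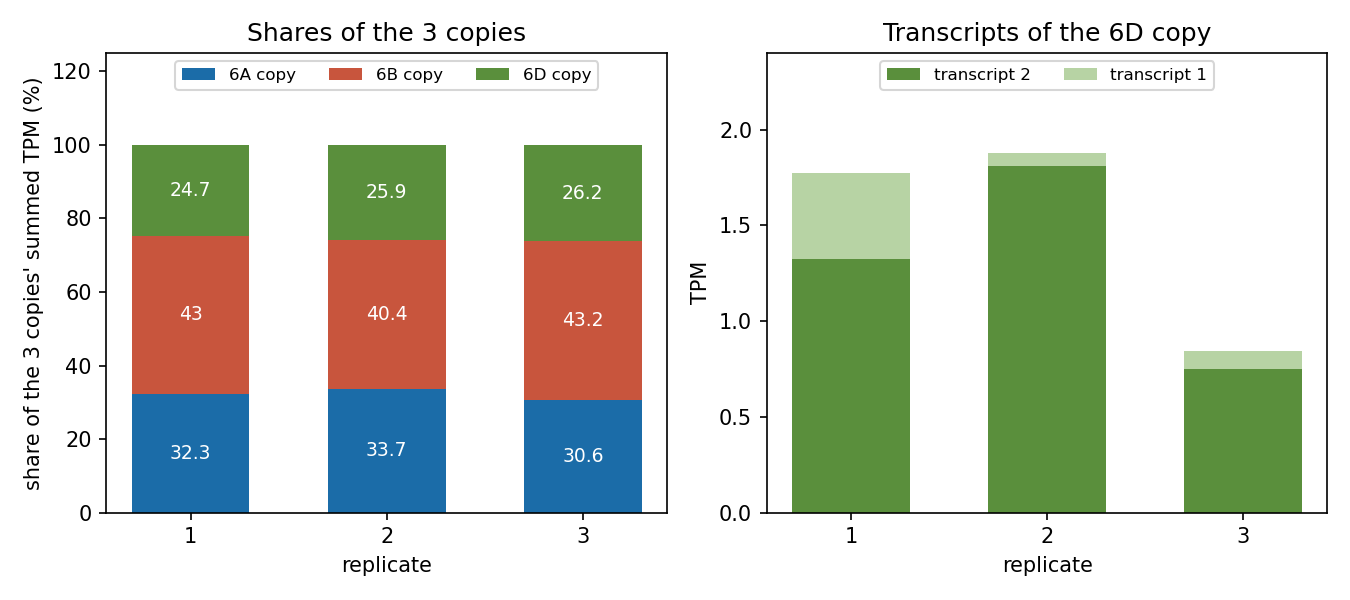
Left, the share of the summed TPM of GW2 held by each copy (percent, y axis) in each replicate (x axis). Right, the TPM of the 2 annotated transcripts of the 6D copy, stacked, in each replicate. The bars on the left divide in nearly the same proportions, whereas transcript 1 of the 6D copy goes from 0.445 TPM in replicate 1 to 0.0668 TPM in replicate 2.

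The estimated counts also show how far the copies can be told apart. kallisto assigns a read that fits several transcripts in fractions, so that a count with a fraction rests partly on shared reads. No copy had a whole count in any library within a tolerance of 0.01, and neither did any pair of copies. The nearest to whole lay just outside it, both in replicate 2, at 0.0108 for 6D and 0.011 for 6A and 6B together. The sum over the 3 copies was whole in 3 of 3 libraries, at 872, 842 and 368 reads, with distances from a whole number of 0.0007 or less. The fractions thus cancelled within the triad. The fraction of each pair therefore mirrors that of the remaining copy, and the pairs add no separate result. Among all 34424 genes with 50 to 1000 estimated counts in every library, 8.42% had whole counts in all 3. This share is for single genes, and none was computed for sums over the copies of other triads. The total of the GW2 triad carried no fraction, whereas the value of each copy depends on how shared reads were divided, by an amount that the deposited tables do not give.

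The 6A and 6B copies have 1 annotated transcript each. The 6D copy has 2, of 1733 bases (TraesCS6D02G176900.1) and 1730 bases (TraesCS6D02G176900.2), 3 bases apart in length. Transcript 2 was the main one in each library, at 1.33, 1.81 and 0.750 TPM in replicates 1, 2 and 3. Transcript 1 stood at 0.445, 0.0668 and 0.0928 TPM. It thus held 25.1%, 3.56% and 11.0% of the TPM of the 6D copy, or 13.2% ± 11.0 (SD, n = 3; 7.28% without replicate 1), on 55.0, 7.88 and 10.8 estimated counts. The 95% Wilson intervals on these counts were 19.9% to 31.4%, 1.85% to 6.98% and 6.38% to 19.0%. The interval of replicate 1 lay above the others, and those of replicates 2 and 3 overlapped.

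The gene total of the 6D copy did not follow its transcript 1. Between replicates 1 and 2 the gene went from 1.77 to 1.88 TPM while transcript 1 went from 0.445 to 0.0668 TPM. The Wilson intervals cover counting error only, and not the division of reads between the transcripts, whose sequences were not used here. The share of the first transcript moved by 21.6 percentage points between libraries. Among 8404 genes with 2 annotated transcripts and at least 50 estimated counts in each library, the median movement was 4.27 points, and 89.2% moved by no more than the 6D copy of GW2. Among the 556 of these whose transcripts also differ by 3 bases in length, the median was 5.38 points and 81.5% moved by no more. The 6D copy thus stood in the upper part of both distributions, without lying outside them. Both sets also hold genes of higher counts, whose shares vary less by counting error, and depth was not matched.

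Replicate 3 was low for GW2 as a whole. On the log2 TPM scale, replicate 3 lay below the mean of replicates 1 and 2 with a difference of -1.27 for 6A, -1.12 for 6B and -1.11 for 6D. Between replicates 2 and 1, the differences were 0.077, -0.074 and 0.085. Replicate 3 was below both other replicates for 3 of 3 copies, which was also the case for 84.0% of the genes with a median of at least 1 TPM. The direction alone thus did not set the copies apart from other genes, and their size was compared with that of all genes.

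Over 49977 genes with a median of at least 1 TPM and no value of 0, the median difference of replicate 3 was -0.69, with quartiles at -0.98 and -0.35. Relative to this median, the differences were -0.58 for 6A, -0.43 for 6B and -0.42 for 6D. Of these genes, 10.6% lay at or below 6A, 16.8% at or below 6B and 17.0% at or below 6D. The larger share of TPM taken by the most abundant transcripts of replicate 3 moved with this result, and its part in it was not tested.

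Division of TPM by TMM factors sets libraries to a common scale by the bulk of their genes. It gave differences of -0.78, -0.63 and -0.62 for 6A, 6B and 6D, with the median gene at -0.20. With median-of-ratios factors the differences were -0.64, -0.48 and -0.48, with the median gene at -0.057. Each scaling shifts all genes alike, so that the differences relative to the median and the percentiles given above did not change. The share of genes with replicate 3 below both others was 58.8% and 47.1% under these scalings. Ranks within a library, which no scaling alters, moved the same way. The 6A copy was at the 64.6th, 64.4th and 56.2nd percentile of the genes above 0 TPM in replicates 1, 2 and 3. The 6B copy was at the 69.8th, 67.8th and 62.5th, and the 6D copy at the 59.7th, 59.6th and 53.4th.

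**Figure D3:**
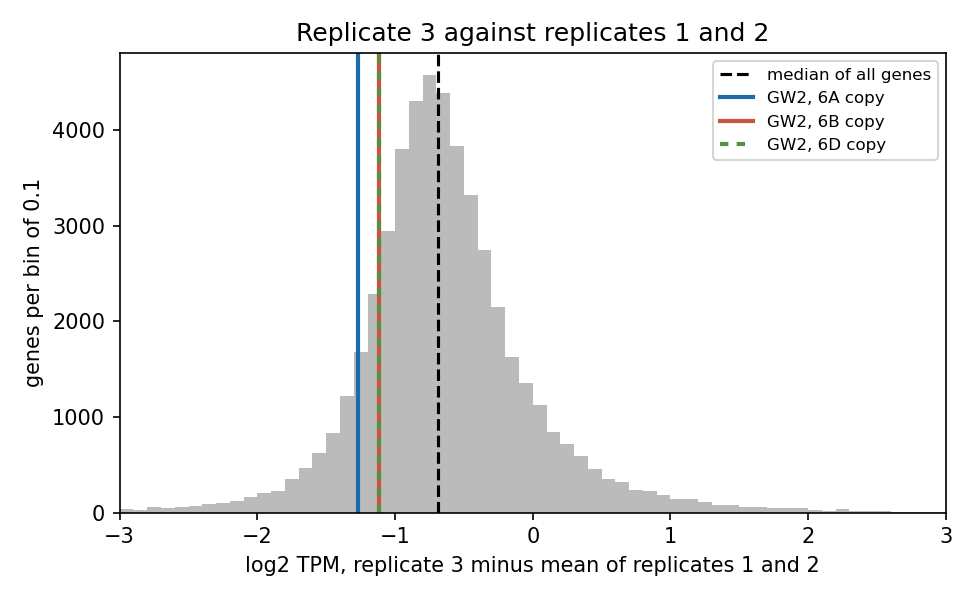
Number of genes (y axis, bins of 0.1) by the difference in log2 TPM between replicate 3 and the mean of replicates 1 and 2 (x axis, drawn from -3 to 3), for genes with a median of at least 1 TPM. The dashed line is the median of all these genes at -0.69, and the 3 GW2 copies, at -1.27 (6A), -1.12 (6B) and -1.11 (6D), lie to its left and close to each other, with 6B and 6D drawn over each other.

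The coefficient of variation over the 3 libraries was 0.422 for 6A, 0.381 for 6B and 0.380 for 6D, where the median over 50028 genes with a median of at least 1 TPM was 0.286. After TMM scaling it was 0.284, 0.232 and 0.233, against a median of 0.175. Over all 3 libraries the copies varied more than the median gene on both scales, at the 83.4th, 75.9th and 75.9th percentile as deposited and at the 75.9th, 65.7th and 65.9th after scaling. This turned without replicate 3, where the coefficients as deposited were 0.0377, 0.0363 and 0.0415 for 6A, 6B and 6D, below the median of 0.0758.

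The genes on either side of GW2 were used to describe its surroundings. Taking the 5 high-confidence genes before and the 5 after each copy in the order of their identifiers, 24 of 30 were expressed (80.0%), where the shares of chromosomes 6A, 6B and 6D were 68.0%, 66.2% and 69.3%. The remaining 6 were at 0 TPM in all libraries. On chromosome 6A the gene just before GW2, TraesCS6A02G189200, stood at 2.48, 1.98 and 2.00 TPM, close to GW2, and the 2 genes just after it, TraesCS6A02G189400 and TraesCS6A02G189500, were at 0. On chromosome 6B, TraesCS6B02G215200 before GW2 had 0.125, 0.348 and 0.133 TPM and TraesCS6B02G215400 after it had 6.39, 6.38 and 5.04 TPM. On chromosome 6D, TraesCS6D02G176800 had 6.28, 5.86 and 3.81 TPM and TraesCS6D02G177000 had 6.04, 4.73 and 5.59 TPM. The median was higher than that of GW2 in 5, 4 and 7 of the 10 neighbours on 6A, 6B and 6D, so that GW2 was near the middle on 6A and 6B and in the lower part on 6D.

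Of the 18 neighbours with a median of at least 1 TPM, 14 (77.8%) were lowest in replicate 3, a share near the 84.0% of all such genes, and their median difference was -0.48. The range ran from -1.34 for TraesCS6D02G177400 (7.59, 7.80 and 3.03 TPM) to 0.64 for TraesCS6D02G176500 (4.84, 0.911 and 3.27 TPM), the latter on a median of 22.1 estimated counts. Some neighbours came near or beyond the differences of GW2. TraesCS6B02G215800 at -1.32 was beyond each copy, and TraesCS6A02G189700 at -1.09 fell short of each copy. The immediate neighbours above 1 TPM were at smaller differences, with TraesCS6A02G189200 at -0.15, TraesCS6B02G215400 at -0.34, TraesCS6D02G176800 at -0.67 and TraesCS6D02G177000 at 0.064. These differences rest on single libraries, and no test was made.

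**Figure D4:**
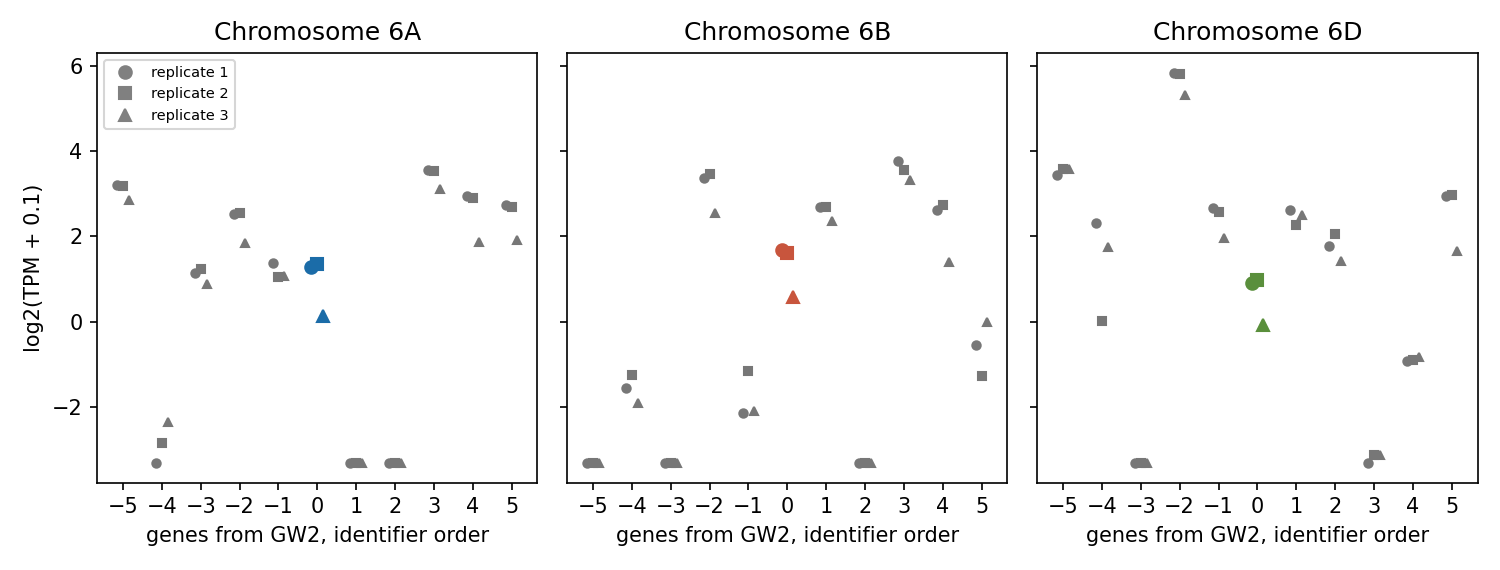
The y axis gives log2(TPM + 0.1) for GW2 (coloured, position 0) and the 5 high-confidence genes on each side in identifier order (grey) on chromosomes 6A, 6B and 6D, with a symbol per replicate. The lowest points are at 0 TPM, and replicate 3 of GW2 is set apart below replicates 1 and 2 on each chromosome.

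The high-confidence genes most like each copy were taken by the root mean square difference in log2(TPM + 0.1) over the 3 libraries, which draws on 1 tissue only. For the 6A copy the nearest was TraesCS7B02G476300, with 2.29, 2.46 and 0.987 TPM and a difference of 0.011. It was followed by TraesCS1A02G067462 (0.023) and TraesCS6B02G353100 (0.028). For the 6B copy they were TraesCS4B02G378700 (0.023; 3.13, 2.99 and 1.36 TPM), TraesCS1A02G127900 (0.027) and TraesCS2B02G094300 (0.029). For the 6D copy they were TraesCS2B02G380500 (0.012; 1.80, 1.89 and 0.839 TPM), TraesCS1B02G089700 (0.021) and TraesCS1B02G346300 (0.025). The copies themselves were farther from each other, at 0.38 between 6A and 6B, 0.32 between 6A and 6D and 0.69 between 6B and 6D, which reflects their unequal levels. Among the 105200 high-confidence genes, the 6D copy ranked 2617th in likeness to 6A, and the 6B copy 3650th. In likeness to 6B, the 6A copy ranked 4365th and the 6D copy 10883rd. In likeness to 6D, the 6A copy ranked 2972nd and the 6B copy 9788th. The measure takes in the level itself, and not only the pattern over replicates.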

How the data were processed

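Per the labels, the authors extracted RNA from shoots, made directional poly(A) libraries, trimmed the reads with Trimmomatic 0.36 and quantified transcripts with kallisto, whose version is not given in the sources used here. The annotation derives from IWGSC RefSeq v1.1. Per the study's methods, it holds the high-confidence genes and only those low-confidence genes that overlap a ChIP-seq peak of a histone mark. Shares and percentiles over all genes refer to this set. For each transcript the authors deposited an estimated count, unnormalized and often fractional, together with TPM. The deposited tables also give lengths. Reads that fit several copies were divided by the authors' quantification. No column was left unused for want of a sample.

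TPM and estimated counts were summed per gene, as the study's methods convert transcripts to genes. Copies were compared within libraries on log2(TPM + 0.1), a pseudocount of 0.1, with two-sided exact permutation tests. TMM factors (edgeR 4.0.16, R 4.3.3) were computed on gene-level estimated counts rounded to whole numbers. Median-of-ratios factors were computed on TPM. Intervals are at 95% (exact Poisson or Wilson) and cover counting error only. Percentiles give the share of genes at or below a value. The calculations were made in Python 3.11.15 with pandas 2.3.3 and scipy 1.17.1. TMM scaling was tested on simulated data and the permutation tests on example values, and the other calculations were not so tested. The members and lists were chosen with earlier results of these data known. Genes named are the 3 copies, the 5 high-confidence genes on each side of each copy and the 3 high-confidence genes nearest to each in level. Alternatives were other pseudocounts, counts in place of TPM, the main transcript alone, unpaired tests, other scalings and gene sets, and each replicate left out. The triad scheme, the whole-count check, the comparison of transcript shares, the values of replicates 1 and 2 alone and the scaling of the difference of replicate 3 were added after the values were seen. The RefSeq gene table used here matched 0 identifiers of the files, so that no coordinates, sequences, tissue markers or other genes of the pathway are given.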

Additional observations from a re-analysis of the deposited data

How the results depend on the processing

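The log2 ratios between copies kept their direction in 27 of 27 alternative values, and none of their exact permutation p-values was below 0.25 (the smallest possible with 2 libraries is 0.5). Most of these values could not have reversed. Pseudocounts, unpaired tests and left-out replicates keep a direction shared by all libraries, and the main transcript alone can only lower 6D. Estimated counts could have differed, and gave -0.37 (6A over 6B), 0.31 (6A over 6D) and 0.69 (6B over 6D). Divided by annotated length they gave -0.39, 0.33 and 0.72. Without each replicate in turn, 6A over 6B lay between -0.43 and -0.33, 6A over 6D between 0.28 and 0.37 and 6B over 6D between 0.64 and 0.71. With the main transcript of each copy alone, 6A over 6D went from 0.31 to 0.51, 6B over 6D from 0.68 to 0.88, and the share of the 6D copy was 23.0%, since its transcript 1 is then left out. Unpaired exact permutation tests gave p = 0.5, 0.5 and 0.3 for 6A over 6B, 6A over 6D and 6B over 6D, where 0.1 is the smallest possible. Levels without replicate 3 were 2.38 (6A), 3.01 (6B) and 1.82 TPM (6D), and the lowest left-out values were 1.65 TPM for 6A (without replicate 2), 2.16 for 6B (without replicate 1) and 1.31 for 6D (without replicate 2). Transcript 1 held between 7.28% and 18.1% of the 6D copy when a replicate was left out, 7.28% being without replicate 1. Among high-confidence genes only, the percentiles of 6A, 6B and 6D were 60.0, 64.4 and 55.0, and among genes with a median of at least 1 TPM they were 29.2, 37.8 and 19.3, since fewer low genes are then counted. The difference of replicate 3 shrank to -0.78, -0.63 and -0.62 under TMM scaling and to -0.64, -0.48 and -0.48 under median-of-ratios scaling for 6A, 6B and 6D, and kept its direction. These scalings shift all genes alike and leave the place of the copies among genes unchanged. A cut of 1 TPM still called 3 copies expressed. The coefficients of variation without replicate 3, chosen after seeing the data, were below the median gene's (0.0377, 0.0363 and 0.0415 against 0.0758). The counting intervals for the steps through the 6A copy were apart in some libraries only, and the error from dividing shared reads was not measured.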
